A study of Mus musculus with 4 samples.

Results

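The densest block of shared binding on mouse chromosome 10 is the stretch from 79000000 to 81000000 (mm9), 2 Mb long. Its members are all peaks of 3 chromatin immunoprecipitation sequencing (ChIP-seq) lists, for the nuclear proteins BAP1, HCF1 and OGT, whose centre lies in it. It held 515 of the 59420 peaks of the series: 149 of 17662 for BAP1, 237 of 31421 for HCF1 and 129 of 10337 for OGT. The block was chosen by its count of regions with all 3 proteins, as the richest 2 Mb, so its peak numbers and overlaps describe the choice and are given with no test.

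The cells were bone marrow derived macrophages of strain C57BL/6, primary cells grown in L929-conditioned medium with no further treatment. The BAP1 library came from an anti-FLAG precipitate of cells from mice carrying the BAP1-3X Flag Tagged KI allele, in which BAP1 itself bears the tag. HCF1 (anti-HCF1), OGT (anti-OGT1) and the input came from BAP1 WT mice, so the BAP1 list differs from the others in genotype as well as in target, and those cannot be told apart. The deposited name of the BAP1 list speaks of wild-type cells, and the sample labels, which give the knock-in, were followed. There was 1 library per target, with no replicates, and the read depth is unknown. Unless stated otherwise, intervals in brackets are exact Clopper-Pearson 95% intervals. They cover counting error only, since neighbouring peaks are not independent and PCR copies were not marked.

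BAP1 is a deubiquitinase that removes ubiquitin from histones and acts as a tumour suppressor. HCF1 is a large cofactor that docks chromatin enzymes onto transcription factors at promoters, and BAP1 and OGT are both among its known partners. OGT attaches a single sugar, O-GlcNAc, to nuclear and cytoplasmic proteins and also processes HCF1. As background, this stretch of chromosome 10 is known to be dense in genes, among them Ptbp1 (a splicing regulator), Gpx4 (which reduces lipid peroxides), Stk11 (a tumour suppressor kinase), Tcf3 (a transcription factor of lymphocytes), Dot1l (a histone methyltransferase), Gadd45b (a stress-inducible gene) and Eef2 (a translation elongation factor). Their mm9 positions were not checked here, and no peak below is assigned to a gene.

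The block stood far above the rest of its chromosome in all 3 lists. BAP1 peaks numbered 74.5 per Mb in the block and 6.44 per Mb in the rest of chromosome 10, a ratio of 11.6. HCF1 had 118.5 against 11.7 per Mb, a ratio of 10.1, and OGT 64.5 against 3.87 per Mb, a ratio of 16.7. The block thus held 21.1% of the OGT peaks of chromosome 10, 15.6% of the BAP1 peaks and 13.9% of the HCF1 peaks. HCF1 peaks covered 14.0% of the block, BAP1 peaks 13.4% and OGT peaks 8.74%, compared with 1.10%, 0.943% and 0.411% of the rest of the chromosome. None of the 1156 other 2 Mb windows with a peak on the autosomes and X held as many peaks of any of the 3 proteins, the highest having 114 for BAP1, 166 for HCF1 and 78 for OGT. On chromosome 10 the next window in rank, from 127000001 to 129000000, held 60 BAP1, 124 HCF1 and 53 OGT peaks and 33 regions with all 3 proteins.

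**Figure D1:**
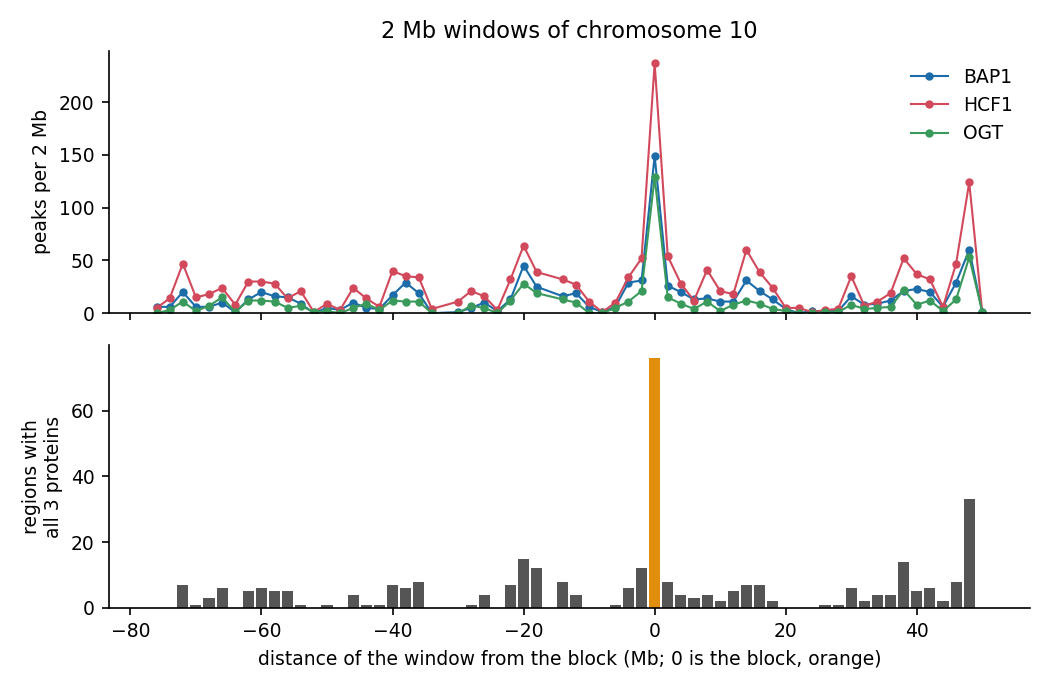
Peaks per 2 Mb window of chromosome 10 for each protein (top, points) and regions with all 3 proteins (bottom, bars), against the distance of the window from the block in Mb. The block, at 0, held 237 HCF1, 149 BAP1 and 129 OGT peaks and 76 regions with all 3 proteins, and the next highest window held 33 such regions.

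The density fell off on both sides. The Mb before the block held 2 BAP1, 4 HCF1 and 1 OGT peaks, and the Mb after it 9, 17 and 6. One Mb farther out the counts were higher again, at 29 BAP1, 48 HCF1 and 20 OGT peaks with 11 shared regions from 77000001 to 78000000, and 17, 37 and 9 peaks with 4 shared regions from 82000001 to 83000000. Inside, the lower Mb held 69 BAP1, 114 HCF1 and 57 OGT peaks and the upper Mb 80, 123 and 72. At the lower edge the nearest BAP1 peak inside lay 1.76 kb from the limit with a score of 191.61, and the nearest outside 439.6 kb away with 140.36. At the upper edge the nearest BAP1 peaks lay 12.8 kb inside (score 74.70) and 7.93 kb outside (281.03), so peaks continued a little past that limit. The nearest regions with all 3 proteins outside the block were 962.4 kb below it and 22.7 kb above it.

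Merging overlapping peaks gave 246 regions in the block, and those with all 3 proteins were the second most frequent of the 7 combinations. Peaks are linked in chains, so such a region need not hold a base covered by all 3 lists. The one from 79528931 to 79531263 holds none, and regions of that kind were not counted. All 3 proteins shared 76 regions, 30.9% (25.2 to 37.1%), against 265 of 1632 regions, 16.2% (14.5 to 18.1%), in the rest of the chromosome and 16.5% of all regions of the genome. HCF1 alone made up 84 regions, 34.1% (28.2 to 40.4%), compared with 41.4% in the rest. BAP1 with HCF1 but no OGT accounted for 31 regions, 12.6% (8.73 to 17.4%), compared with 19.5%. The other combinations had like shares in both: BAP1 alone 11.8% and 11.8%, OGT alone 4.88% and 5.02%, HCF1 with OGT 4.88% and 5.33%, and BAP1 with OGT 0.813% and 0.735%. Every combination was denser in the block, from 6.09 times for BAP1 with HCF1 to 17.9 times for all 3 proteins. The surplus of shared regions rests on the overlap rule: with centres required to lie within 250 bp, 27 regions of the block had all 3 proteins and their share was -0.228 percentage points from that of the rest, and with peaks trimmed to 200 bp it was -0.874 points.

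Peaks and shared regions filled 2 stretches of the block with a sparse part between them. From 79200001 to 79900000 there were 61 BAP1, 108 HCF1 and 54 OGT peaks and 34 regions with all 3 proteins. From 80000001 to 81000000 there were 80, 123 and 72 peaks and 39 such regions. The 100 kb between these held 1 BAP1 peak, 1 HCF1 peak and no OGT peak, and the longest distance between neighbouring regions with all 3 proteins, 173.7 kb from 79865050 to 80038783, spans it. The longest stretch with no peak at all, 94.0 kb from 79018060 to 79112090, lies at the lower end. Over the 20 bins of 100 kb, BAP1 ranged from 1 to 14 peaks (median 8.50), HCF1 from 1 to 24 (median 11), OGT from 0 to 12 (median 6) and shared regions from 0 to 7 (median 4). The proteins rose and fell together along the block, with Spearman rho of 0.86 for BAP1 and HCF1, 0.83 for HCF1 and OGT and 0.80 for BAP1 and OGT over these bins, which share the same genome and input.

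**Figure D2:**
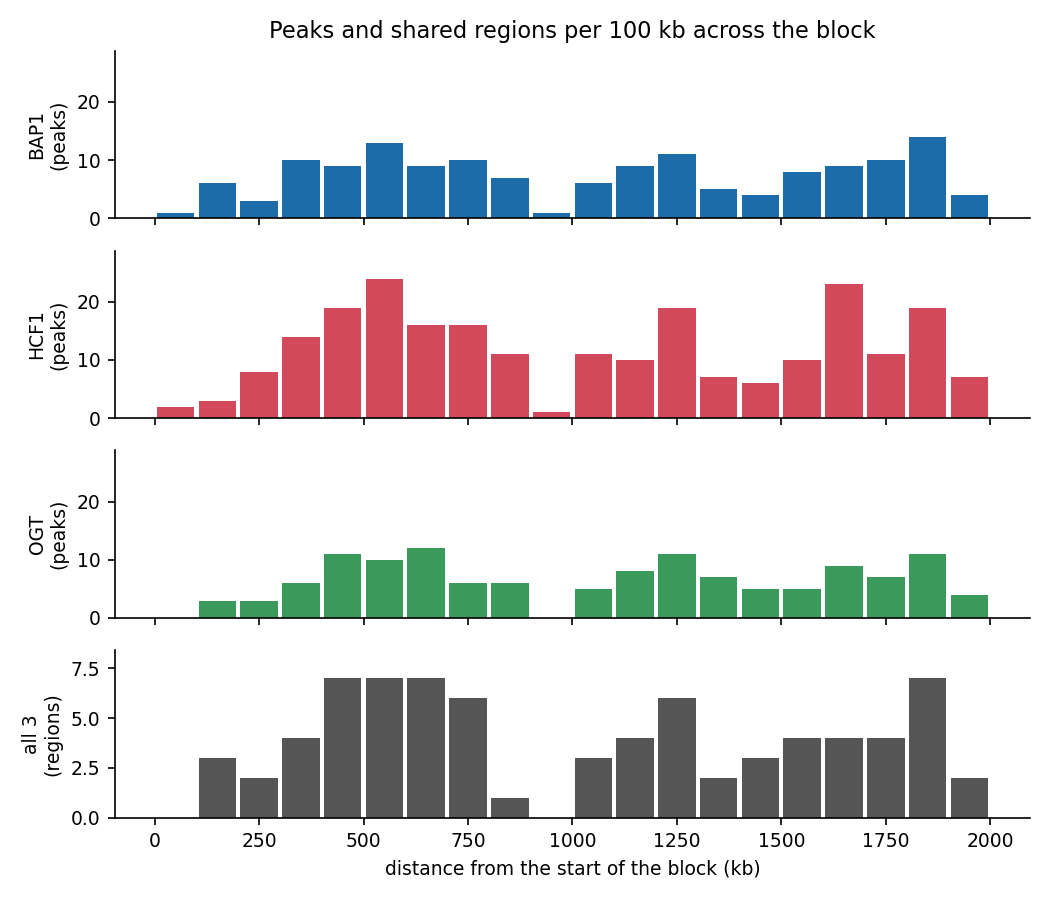
Number of peaks of BAP1, HCF1 and OGT and number of regions with all 3 proteins (bars) in each of 20 bins of 100 kb, against the distance from the start of the block in kb. The bin from 900 to 1000 kb held 1 BAP1, 1 HCF1 and no OGT peak, and up to 7 shared regions fell into a bin on either side.

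Neighbouring sites were close. The median gap between neighbouring HCF1 peaks was 1.94 kb in the block and 12.2 kb in the rest of the chromosome, between BAP1 peaks 6.39 and 35.2 kb, and between OGT peaks 4.62 and 45.7 kb. Regions with all 3 proteins were a median of 16.0 kb apart, against 106.9 kb. Joined where less than 10 kb lay between them, the 76 shared regions formed 42 groups, of which 9 had at least 3 members and together held 36 regions. The rest of chromosome 10 had 6 such groups with 25 of its 265 shared regions, and its largest group, of 8, exceeded any in the block. The largest group of the block, 6 shared regions within 28.5 kb from 79603463 to 79631925, mixed strong and weak sites. Its second region was among the strongest of the block, while the next, from 79617398 to 79619356, had the lowest BAP1 percentile of all 76, with a BAP1 score of 51.29 beside 259.02 for HCF1 and 102.88 for OGT. In that weak region the BAP1 and OGT peaks do not overlap and are joined only through HCF1.

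Scores were higher in the block than in the rest of the chromosome, most clearly for OGT and BAP1. The score is the authors' own number per peak, with a floor of about 50. A percentile is a peak's rank among all peaks of its list. The median OGT score was 122.5 (quartiles 75.7 and 246.3) in the block and 85.2 (61.5 and 139.6) in the rest, or percentiles 69.0 and 49.0. For BAP1 the medians were 159.2 (79.7 and 350.9) and 106.6 (69.3 and 190.5), percentiles 65.9 and 47.3. HCF1 differed least, with medians of 120.8 (69.6 and 401.2) and 99.8 (63.5 and 212.8), percentiles 55.5 and 48.0. The quartiles of block and rest overlapped in each list. BAP1 peaks overlapped by both other lists had median percentiles of 88.3 in the block and 67.8 in the rest. BAP1 peaks with HCF1 only had 43.0 and 49.0, and with neither 18.9 and 25.7. OGT peaks had 73.5 and 55.7 with both, 69.6 and 52.3 with HCF1 only and 19.8 and 20.6 with neither. HCF1 peaks had 90.4 and 82.6 with both, 48.4 and 58.1 with BAP1 only and 31.2 and 29.3 with neither. The larger share of peaks with both follows from the choice of the block.

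At the upper end the separation was plainer. The highest score decile of the whole list took in 40 of the 149 BAP1 peaks, 26.8% (19.9 to 34.7%). For HCF1 it took in 51 of 237, 21.5% (16.5 to 27.3%), and for OGT 29 of 129, 22.5% (15.6 to 30.7%). In the rest of chromosome 10 these shares were 7.59%, 7.39% and 7.04%, each below the block's interval. Weak peaks were present too, with 14 BAP1 (9.40%), 15 HCF1 (6.33%) and 7 OGT peaks (5.43%) in the lowest decile. Among peaks that score at least 100, the median OGT percentile of block and rest differed by only 0.295, and the OGT density ratio was 29.5, so a larger share of the block's OGT peaks lay above that limit. BAP1 peaks were wider in the block, at a median of 1388 against 1227 bp, and so were OGT peaks, at 1021 against 909 bp, whereas HCF1 medians were 719 and 713.5 bp. The upper quartiles of width were 2234 against 1648.2 bp for BAP1, 1468 against 1147.8 bp for HCF1 and 1592 against 1243.5 bp for OGT.

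The largest differences in pairwise overlap involved OGT. Its peaks also had the largest density ratio, 16.7, and covered 8.74% of the block and 0.411% of the rest. The part of density in the overlap differences was not tested. OGT overlapped 86 of 149 BAP1 peaks, 57.7% (49.4 to 65.8%), compared with 35.1% (31.8 to 38.5%) in the rest of chromosome 10 and 35.2% over the whole list. It overlapped 103 of 237 HCF1 peaks, 43.5% (37.1 to 50%), against 26.9% (24.7 to 29.3%) in the rest and 26.6% over the whole list. BAP1 overlapped 102 of 129 OGT peaks, 79.1% (71.0 to 85.7%), against 62.9% (58.5 to 67.3%) and 66.3%. For BAP1 on HCF1 peaks the shares were 56.1% (49.5 to 62.5%) of 237 peaks, 46.4% (43.9 to 49.0%) and 47.6%. With HCF1, the longest list, as the partner the differences were small. It overlapped 118 of 149 BAP1 peaks, 79.2% (71.8 to 85.4%), against 74.5% and 74.7%. Of 129 OGT peaks it overlapped 111, 86.0% (78.8 to 91.5%), against 80.3% and 82.1%. That smallness held for the full lists. Lists were also cut to equal length by keeping the highest-scoring peaks of each, which raises the score limit too. Length and score therefore cannot be told apart in that comparison. With lists of equal length, overlap by HCF1 was 16.2 percentage points (5.88 to 24.8) higher in the block among BAP1 peaks. Among OGT peaks it was 17.2 points (7.69 to 25.7) higher. Overlap by OGT still differed most, by 29.3 points among BAP1 peaks and 26.8 among HCF1 peaks.

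Part of this difference goes with score. When the rest of chromosome 10 was weighted to the block's mix of score deciles, it gave 45.6% for BAP1 peaks on OGT and 34.9% for HCF1 peaks on OGT, between the plain value and that of the block. With HCF1 as the partner the weighted shares were 80.5% of BAP1 peaks and 84.8% of OGT peaks. With BAP1 as the partner they were 52.8% of HCF1 peaks and 67.2% of OGT peaks. The contrast for OGT was largest among strong peaks. In the highest score tertile OGT overlapped 76 of 95 HCF1 peaks of the block, 80% (70.5 to 87.5%), and 52.7% (47.9 to 57.4%) of those in the rest. For BAP1 peaks it was 60 of 73, 82.2% (71.5 to 90.2%), against 56.4% (49.9 to 62.7%). Scores were not matched within that tertile. The highest decile made up 51 of its 95 HCF1 and 40 of its 73 BAP1 peaks in the block. In the rest it made up 108 of 444 and 61 of 243. In the middle tertile OGT overlapped 30.7% of HCF1 peaks against 21.7%, and 47.2% of BAP1 peaks against 29.4%. In the lowest tertile OGT overlapped 4 of 67 HCF1 peaks, 5.97% (1.65 to 14.6%), against 9.58%, and 22.5% of BAP1 peaks in both areas. Both other proteins were present on 84 of 149 BAP1 peaks, 56.4% (48.0 to 64.5%), against 33.4% over the whole list. They were present on 83 of 237 HCF1 peaks, 35.0% (29.0 to 41.5%), against 20.0%, while for OGT it was 96 of 129 peaks, 74.4% (66.0 to 81.7%), against 62.4%. The rest of chromosome 10, weighted to the block's score deciles, gave 44.4% for BAP1, 27.5% for HCF1 and 65.0% for OGT peaks.

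**Figure D3:**
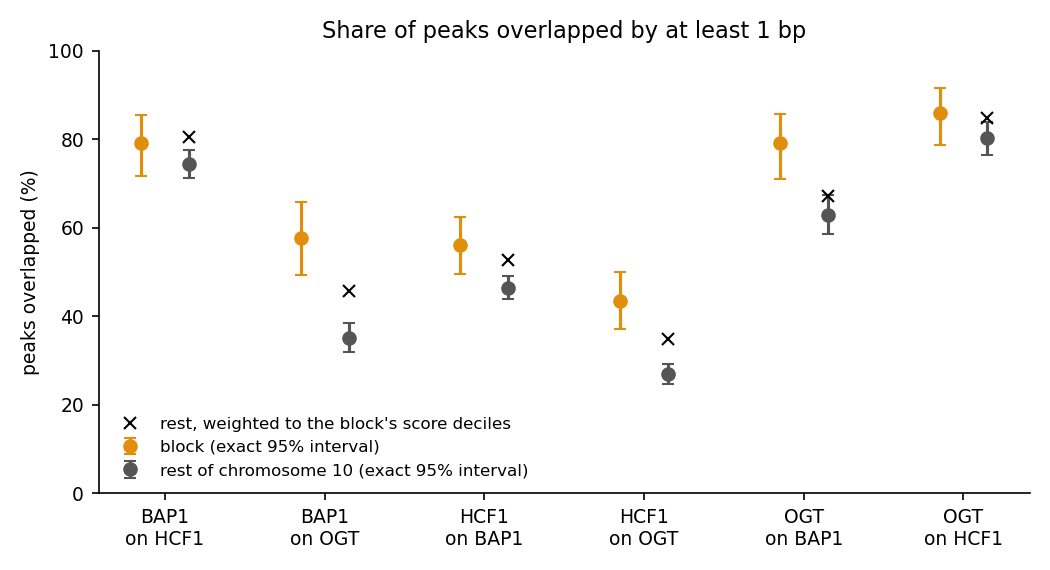
Share of peaks (percent, y axis) overlapped by at least 1 bp by another list, in the block (orange) and the rest of chromosome 10 (grey), with exact 95% intervals, and the rest weighted to the block's score deciles (crosses). The widest separation is for BAP1 peaks on OGT, at 57.7% and 35.1%. Where HCF1 is the partner the values are 79.2% and 74.5% for BAP1 peaks and 86.0% and 80.3% for OGT peaks. All values are from the full lists, which differ in length.

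Overlapping peaks were less closely centred in the block than in the rest of the chromosome. Overlapping BAP1 and HCF1 peaks had centres a median of 304.2 bp apart (quartiles 94.9 and 796.2 bp, 142 pairs), against 173.5 bp (69.8 and 425.2 bp, 695 pairs) in the rest of the chromosome. For HCF1 and OGT the medians were 413 bp (128 and 803 bp) and 208.5 bp (73 and 415.5 bp), and for BAP1 and OGT 476.5 bp (184.2 and 908.2 bp) and 219.2 bp (89.1 and 431.8 bp). Centres lay within 250 bp in 46.5% (38.1 to 55.0%) of the BAP1 and HCF1 pairs of the block and 60.7% (57.0 to 64.4%) of those in the rest. The same shares were 36.0% (27.6 to 45.1%) and 56.5% (51.6 to 61.3%) for HCF1 and OGT, and 36.4% (27.4 to 46.3%) and 54.2% (48.5 to 59.9%) for BAP1 and OGT. The overlap surplus shrank or turned when centres within 250 bp were required: block minus rest was then 5.53 percentage points for BAP1 on OGT, 2.71 for HCF1 on OGT, -1.02 for HCF1 on BAP1, -8.19 for BAP1 on HCF1, -4.14 for OGT on BAP1 and -14.4 for OGT on HCF1.

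Centre distances also differed by the width of the peaks. Among BAP1 and HCF1 pairs whose wider peak was under 1.5 kb, the median distance was 108.5 bp in the block (43 pairs) and 98.2 bp in the rest (320 pairs). With the wider peak of 1.5 to 3 kb it was 290.5 bp (53 pairs) and 263 bp (308 pairs), and from 3 kb it was 945.8 bp (46 pairs) and 1010 bp (67 pairs). For HCF1 and OGT the medians in these classes were 207.5 bp (43 pairs) against 123 bp (229 pairs), 420 bp (53 pairs) against 302.5 bp (145 pairs) and 1191.5 bp (29 pairs) against 856.5 bp (47 pairs). For BAP1 and OGT they were 138 bp (22 pairs) against 121.2 bp (134 pairs), 476.5 bp (43 pairs) against 305 bp (128 pairs) and 852 bp (42 pairs) against 728.8 bp (44 pairs). The part of peak width in the difference between block and rest was not tested.

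**Figure D4:**
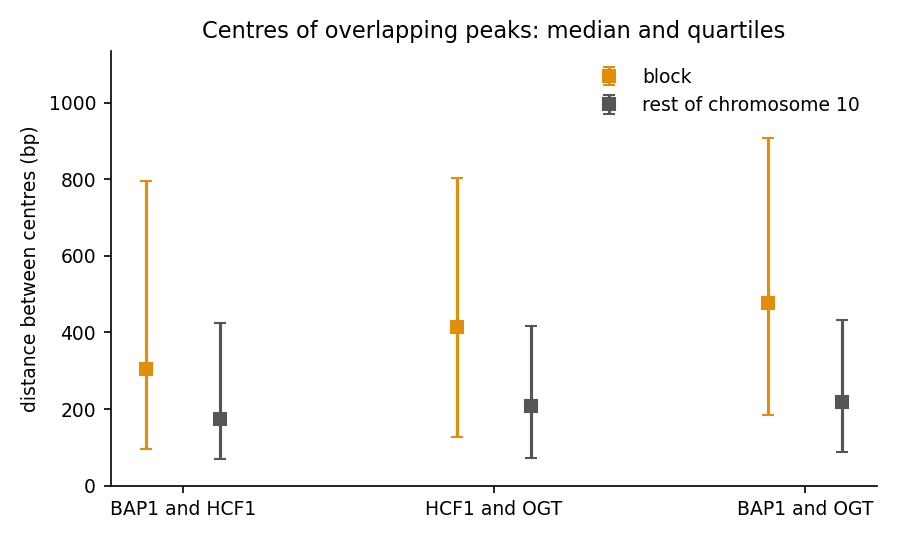
Distance in bp (y axis) between the centres of overlapping peaks of each pair of proteins, in the block (orange) and the rest of chromosome 10 (grey). Squares are medians and bars run from the lower to the upper quartile, with block medians of 304.2, 413 and 476.5 bp above those of the rest at 173.5, 208.5 and 219.2 bp.

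The 76 shared regions of the block were wider and scored higher than the 265 in the rest of the chromosome. Neither property was used directly to choose the block. The choice counted regions joined by overlap of at least 1 bp, which wider peaks meet more easily, so width is not independent of it. The median width of the block's shared regions was 2666.5 bp (quartiles 1880.8 and 3927.5 bp, range 973 to 7428 bp), against 1939 bp (1406 and 2654 bp). Regions over 5 kb made up 13 of 76, 17.1% (9.43 to 27.5%), and 12 of 265, 4.53% (2.36 to 7.78%). A single peak of each protein was found in 42 of them, 55.3% (43.4 to 66.7%), against 76.2% (70.6 to 81.2%), and more than 1 OGT peak in 19, 25% (15.8 to 36.3%), against 9.43% (6.20 to 13.6%). Among regions with 1 peak of each protein the median widths were 1994 and 1721.5 bp. That difference of 272.5 bp had a 95% interval of -87.5 to 792.5 bp, which includes no difference. Over all shared regions it was 727.5 bp (396 to 1279 bp). Both intervals come from the ranks of the block's regions, treated as independent, with the median of the rest taken as fixed, and are no test.

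With each protein taken at its best peak in the region, median percentiles in the block were 91.0 for BAP1, 91.1 for HCF1 and 75.6 for OGT, compared with 68.4, 83.9 and 56.7 in the rest. The lowest of the 3 percentiles, which is high only where all 3 proteins score well, had a median of 68.9 (quartiles 40.8 and 83.0) against 43.8 (20.8 and 65.2). It exceeded 90 in 12 of 76 regions, 15.8% (8.43 to 26%), and in 9 of 265, 3.40% (1.56 to 6.35%). Among regions with 1 peak of each protein the medians were 64.9 and 40.6. By width, the medians were 39.0 and 29.9 in regions under 2 kb, 72.4 and 52.9 from 2 to 5 kb, and 86.6 and 70.5 from 5 kb, in block and rest. With only peaks that score at least 100 the difference between these medians was 2.12 percentile points. OGT was the lowest-ranked of the 3 proteins in 47 of the 76 regions, BAP1 in 22 and HCF1 in 7. The order was the same in the rest, with 155, 94 and 16. Percentiles are ranks within lists of different length. Over the whole lists 62.4% of OGT, 33.4% of BAP1 and 20.0% of HCF1 peaks were overlapped by both other lists. The order of the proteins cannot be told apart from that.

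**Figure D5:**
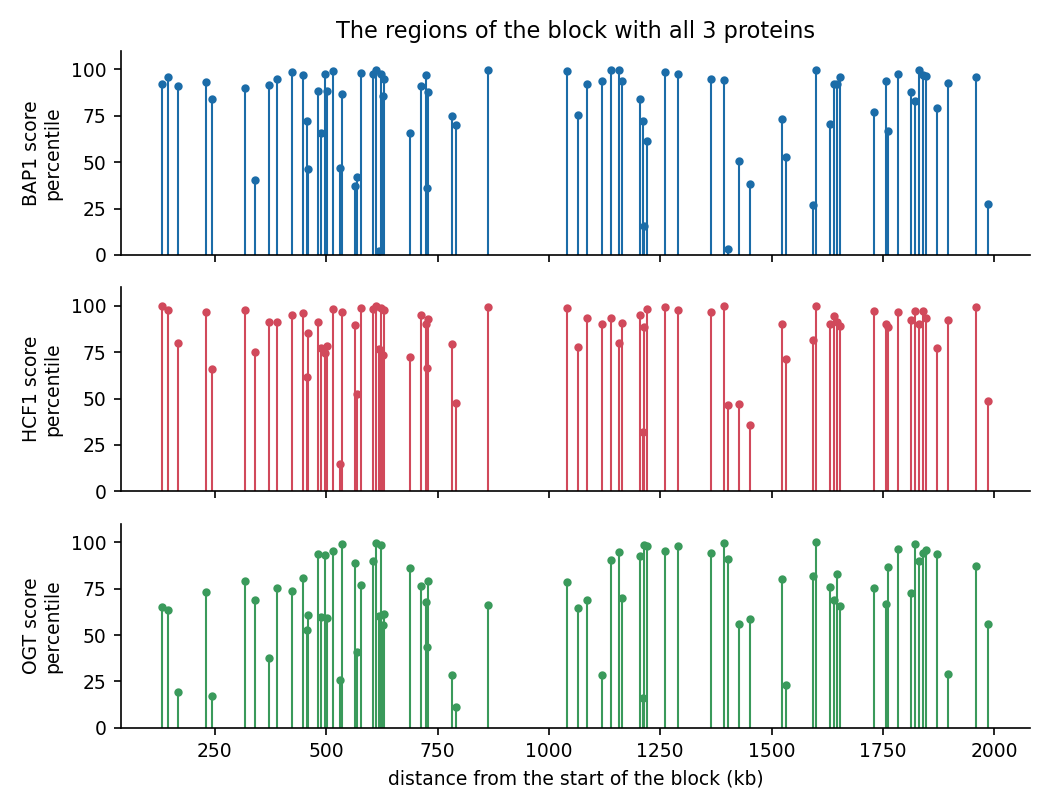
Score percentile within its own list (y axis, 0 to 100) of the best BAP1, HCF1 and OGT peak in each of the 76 regions with all 3 proteins, against the distance of the region from the start of the block in kb. HCF1 points crowd near the top (median 91.1), BAP1 has a few very low sites down to 2.13, and OGT is the most spread, with a median of 75.6.

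The strongest shared regions lay in both stretches. The first by lowest percentile, on chromosome 10 from 80596127 to 80603400, is 7274 bp wide and holds 2 BAP1, 2 HCF1 and 3 OGT peaks. Its best scores were 1438.6 for BAP1, 3100.0 for HCF1 and 2371.06 for OGT, and the first and last of these were the highest BAP1 and OGT scores of the block, ranking 35 and 9 in their whole lists. A single HCF1 peak of 6205 bp there spans 2 separate OGT peaks, of 3426 and 2356 bp, and a BAP1 peak of 4915 bp. The region next in rank, from 79609079 to 79616506, is the widest of the block at 7428 bp, with scores of 1298.0 (BAP1), 3100.0 (HCF1) and 1164.58 (OGT). It has the same form, with 1 HCF1 peak of 6591 bp over 3 OGT peaks and most of 2 BAP1 peaks. The eighth, from 80390611 to 80397556, likewise has an HCF1 peak of 6388 bp at 3100.0 over several OGT peaks, the best at 1230.49, but a BAP1 score of only 433.91. The score of 3100.0 is shared by many HCF1 peaks of the whole list, so these 3 cannot be ranked among each other. Another HCF1 peak of the block, from 79131332 to 79133341, has the same score but is only 2010 bp wide. The best OGT score in its region was 113.19.

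The other leading regions were narrower, the widest of them at 5474 bp. That from 79620696 to 79624184, the third, had 1 peak of each protein with scores of 604.13 (BAP1), 1580.97 (HCF1) and 618.89 (OGT), and its centres lay within 68.5 bp of each other. The fourth, from 80288061 to 80290574, had 574.79, 1184.54 and 572.52 in the same order, and the fifth, from 80780811 to 80784737, had 610.34, 1010.5 and 427.95. The sixth, from 79513548 to 79519021, was made of 8 peaks and had 844.11, 1409.21 and 400.03. The seventh, from 80259653 to 80262407, had 790.91, 1934.6 and 387.75, the ninth, from 80839337 to 80842331, had 549.66, 1080.97 and 351.9, and the tenth, from 80362284 to 80364768, had 440.47, 1016.62 and 344.08. In all 10 the HCF1 score was the highest of the 3 numbers, but scores are not comparable between lists. The BAP1 peak from 79860780 to 79864591, the block's second by score at 1365.88, is an example of imbalance. It shares its region with an HCF1 score of 1796.75, while OGT reached only 115.94.

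Sites of a single protein had low median scores, and many lay near shared ones. The 84 regions with HCF1 alone had a median HCF1 percentile of 31.2 and a median width of 444 bp, close to 29.3 and 537.5 bp in the rest. They lay a median of 2.38 kb from the nearest region with all 3 proteins, against 44.0 kb, and 53 of them, 63.1% (51.9 to 73.4%), were within 5 kb, against 12.6% (10.2 to 15.3%). With shared regions 17.9 times denser, shorter distances follow from the choice of the block. The 29 regions with BAP1 alone had a median BAP1 percentile of 18.9, against 25.7, and the 12 with OGT alone a median OGT percentile of 19.8, against 20.6. The 31 regions with BAP1 and HCF1 but no OGT had median percentiles of 45.0 for BAP1 and 66.6 for HCF1, compared with 49.0 and 61.5. The median percentile of HCF1 alone was 1.89 points higher than in the rest (-4.41 to 9.57), and that of BAP1 alone was -6.77 points away (-15.1 to 14.8). These 95% intervals come from the ranks of the block's sites, treated as independent, with the median of the rest taken as fixed. Both include no difference, and no test was run. Regions with HCF1 and OGT but no BAP1 had a median OGT percentile of 76.5 in 12 regions against 53.8 in 87.

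The highest sites with fewer proteins varied in how they compared with the shared regions, whose median best scores were 349.0 for BAP1, 585.9 for HCF1 and 145.5 for OGT. For HCF1 alone the highest lay from 79527207 to 79528411 with a score of 229.72, 0.519 kb from a shared region. For BAP1 alone it lay from 79707052 to 79709157 with 228.92, and both scores were below those medians. For OGT alone it lay from 79642517 to 79643294 with 235.24, above the median. Regions with a pair of proteins were ranked by the lower of their percentiles. The first with BAP1 and HCF1, from 80023269 to 80025204, scored 222.63 and 699.44. The first with HCF1 and OGT, from 80605126 to 80606913, scored 454.21 and 176.83 and is 1.73 kb from the strongest shared region of the block. Another with HCF1 and OGT, from 80225083 to 80227257, named after its values were seen, had an OGT score of 469.59 with 93.31 for HCF1. Only 2 regions had BAP1 and OGT without HCF1. The one from 79805040 to 79806012 paired an OGT score of 303.31 with a BAP1 score of 66.43, and the other, from 80167485 to 80168784, had 75.32 for BAP1 and 51.10 for OGT.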

How the data were processed

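ChIP DNA of BAP1, HCF1 and OGT was sequenced from 1 library each, and the input library has no list here. The submitters' processing notes name GSNAP, MACS 1.4 and the build mm9, with no settings. The authors deposited 1 peak list per library, and the score deposited with each peak has no stated definition. The other deposited values are start and end positions. Starts were read as counted from 0 and are printed counted from 1.

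Peaks sharing at least 1 bp were called overlapping, and peaks linked in this way formed merged regions, placed by their centre. The rest of chromosome 10 runs from its first to its last peak, 124.9 Mb without the block. Windows of 2 Mb start at odd Mb. Regions named are the 10 shared regions with the highest lowest percentile and the 3 highest peaks of each list, the wider first among ties. Also named are the widest region, the leading region of each other combination and the sites at the edges. The members, lists and rules were chosen with earlier results of these data known. Overlap and merging were checked on simulated peaks. Software was Python 3.11.15, numpy 2.4.6, pandas 2.3.3 and scipy 1.17.1. Gene positions and sequences supplied here are of another build, so the planned placement on genes and motifs was not run.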

Additional observations from a re-analysis of the deposited data

How the results depend on the processing

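Across the alternatives, 119 of 160 recomputed values stayed within the interval of the main value, or for counts within 1.5 times of it. Of 141 recomputed differences, 17 had the opposite sign to the main value. Some of these stayed within a wide main interval. BAP1 on HCF1, at 4.69 points, became -0.913 with reciprocal overlap of 50% and -1.27 with weighting by score decile. The values outside the main interval, as block against rest of chromosome 10, were these. With the block moved 250 kb down, the density ratios were 9.43 (BAP1), 8.57 (HCF1) and 13.4 (OGT). With a score of at least 100 they were 11.9 for HCF1 and 29.5 for OGT, the share of regions with all 3 proteins differed by 23.3 percentage points, BAP1 on OGT by 37.6 and HCF1 on OGT by 33.4. With that limit the median BAP1 width differed by 411.5 bp, the median OGT percentile by 0.295, the lowest percentile of shared regions by 2.12 and the percentile of HCF1 alone by -5.62. With centres within 250 bp the block had 27 shared regions, a share -0.228 points from the rest, and differences of -8.19 (BAP1 on HCF1), 5.53 (BAP1 on OGT), -1.02 (HCF1 on BAP1), 2.71 (HCF1 on OGT), -4.14 (OGT on BAP1) and -14.4 points (OGT on HCF1). With peaks trimmed to 200 bp it had 19, a share -0.874 points from the rest, and in the same order -10.8, 1.18, -3.06, 2.30, -7.95 and -12.6 points. With reciprocal overlap of 50% it had 48, a share 4.16 points higher, and differences of 9.68 (BAP1 on OGT), 7.84 (HCF1 on OGT), -0.992 (OGT on BAP1) and -7.89 (OGT on HCF1). With lists of equal length the share differed by 21.7 points, BAP1 on HCF1 by 16.2, HCF1 on OGT by 26.8 and OGT on HCF1 by 17.2. Weighting the rest by score decile gave 12.2 (BAP1 on OGT) and 8.58 points (HCF1 on OGT). Shared regions with 1 peak of each protein differed by 272.5 bp in width. The weighting by width, the 2 Mb taken singly and the restriction to 1 peak of each protein were added after the data were seen. Narrower targets are met less often by construction of the centre and trimming rules; otherwise the cause was not tested. With depth unknown, absence from a list does not show that a site is free of the protein. No paired analysis was possible because there is a single library per target.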

Other observations

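Other dense windows give a scale for the block. Besides it, 34 windows of 2 Mb held at least 100 HCF1 peaks. The share of regions with all 3 proteins ran from 12.3% to 33.8% in them (median 21.8%), against 30.9% in the block, and 1 window exceeded it. That window, on chromosome 17 from 35000001 to 37000000, held 47 shared regions among 139. The share of HCF1 peaks with both other proteins had a median of 26% in the dense windows, against 35.0%, and 2 exceeded the block. The median distance between BAP1 and HCF1 centres in them was 228.1 bp (143.8 to 429.5 bp), against 304.2 bp, with 2 windows above the block. The median lowest percentile of shared regions ran from 27.7 to 72.5 in them (median 55.7), against 68.9, with 3 above the block. Over 1157 windows, the number of shared regions followed the number of HCF1 peaks with a Spearman rho of 0.89. Windows share library and depth within a list, and a shared region needs an HCF1 peak, so no p is given.

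Within the shared regions the scores of the 3 proteins ran together. In the 76 regions of the block Spearman rho was 0.69 for BAP1 and HCF1, 0.58 for HCF1 and OGT and 0.40 for BAP1 and OGT, and in the 265 of the rest 0.67, 0.32 and 0.23.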
